A study of Mus musculus with 9 samples.

Results

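The genes described here encode the enzymes and regulators of cholesterol and fatty acid synthesis. A list of 34 gene names, which stand for 33 genes because Sc4mol is the older name of Msmo1, was matched to probe sets that carry a single gene symbol. By this rule 32 of the 33 genes were found, through 76 probe sets, among 18193 genes named in the series, and all 32 lay above the filter on low signals on all 9 arrays. Acat2 was not analysed here. RNA came from the stomachs of 9 healthy female C57Bl/6 mice aged 3 months, kept without treatment on a standard diet. From each stomach, stripes 600 to 800 µm wide were cut side by side from the corpus, which is glandular, from the forestomach, which is not, and from the squamocolumnar junction at the limiting ridge between them. Pools of 3 mice formed a series, and 3 series gave 3 arrays in each zone, so that the spread between replicates is that between pools of mice. Arrays are named by zone and series number, and n = 3 for every zone.

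Cholesterol is built from acetyl-CoA through mevalonate, the isoprenoids and squalene, and the late enzymes then trim lanosterol to cholesterol in the endoplasmic reticulum. Fatty acids are built from the same acetyl-CoA, which ATP citrate lyase releases from citrate, and are then elongated and desaturated. The transcription factors SREBP-1 and SREBP-2, encoded by Srebf1 and Srebf2, control both pathways, and INSIG proteins hold them back when sterols are plentiful. Stratified squamous epithelium is known for a barrier of ceramides, cholesterol and long-chain fatty acids that its outer cells secrete.

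The labels name the samples as epithelium, and marker genes of smooth muscle and fibroblasts were also detected in every zone. Krt5, a keratin of basal squamous cells, had a signal of 149.6 ± 63.8 (SD) in the corpus, 5652 ± 863 in the junction and 5278 ± 557 in the forestomach. Atp4a, the proton pump of parietal cells, had 11930 ± 2260, 10370 ± 623 and 355.4 ± 300. The last came from 45.6, 376 and 645 on the single forestomach arrays. Forestomach arrays 2 and 3 thus held more transcripts of the glandular stomach than array 1, and corpus and junction cannot be told apart as their source. The summed signal of 7 of 9 surface and neck mucous cell genes (Muc5ac, Tff1, Gkn1 and others) was 1257, 24127 and 30255 on forestomach arrays 1, 2 and 3, and 58829 to 87983 in the corpus. The genes differed in size. Muc5ac read 21.2, 472 and 565 on those arrays, beside 12730 ± 2210 (SD) in the corpus. Gkn2 read 387, 9454 and 11877, beside 12260 ± 2750. The summed signal of 8 of 8 listed smooth muscle genes (Myh11, Acta2, Des and others) was 21407 to 31185 in the corpus, 24423 to 29069 in the junction and 56605 to 61974 in the forestomach. For 7 of 7 fibroblast genes (Col1a1, Pdgfra and others) the sums were 14732 to 17156, 20840.2 to 22341 and 27436 to 35812. Muscle and fibroblast transcripts thus differed between zones together with the genes described below, and their part in those differences was not tested. In pooled tissue, fewer cells of a type and less RNA per cell cannot be told apart.

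Most of the synthesis genes were higher in the forestomach than in the corpus. A gene was called different when limma's moderated test gave a Benjamini-Hochberg adjusted p under 0.05 over 13637 genes, on the scale log2(signal + 9.8). Of the 32 genes, 24 were higher in the forestomach, where 30.0% of all genes tested were, and 4 were lower (Insig1, Acacb, Fads2 and Elovl7), where 29.9% of all genes were. Hmgcs1, Fdft1, Srebf1 and Fasn were not called. The median log2 difference of the 32 was 0.76, beside -0.01 over all genes tested. Forestomach and corpus arrays were fully apart for 30 of the 32 genes, and for 66.4% of all genes. Called in either direction were 28 of the 32, beside 59.9% of all genes tested.

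The junction held smaller differences from the corpus. There 11 of the 32 were higher than in the corpus (13.2% of all genes tested) and 0 were lower (11.8% of all genes), with 1 lower at an unadjusted p under 0.05 by limma, and 25.0% of all genes were called either way. The median difference was 0.26, against -0.05 over all genes, and arrays did not overlap for 20 of the 32 (43.8% of all genes). Compared with the forestomach, 16 of the 32 were lower in the junction (23.1% of all genes) and 4 higher (21.5%), 20 in all beside 44.6%, with a median of -0.39 against -0.035 over all genes. Arrays of those zones did not overlap for 25 of the 32, and for 55.8% of all genes. These comparisons share arrays with each other.

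**Figure D1:**
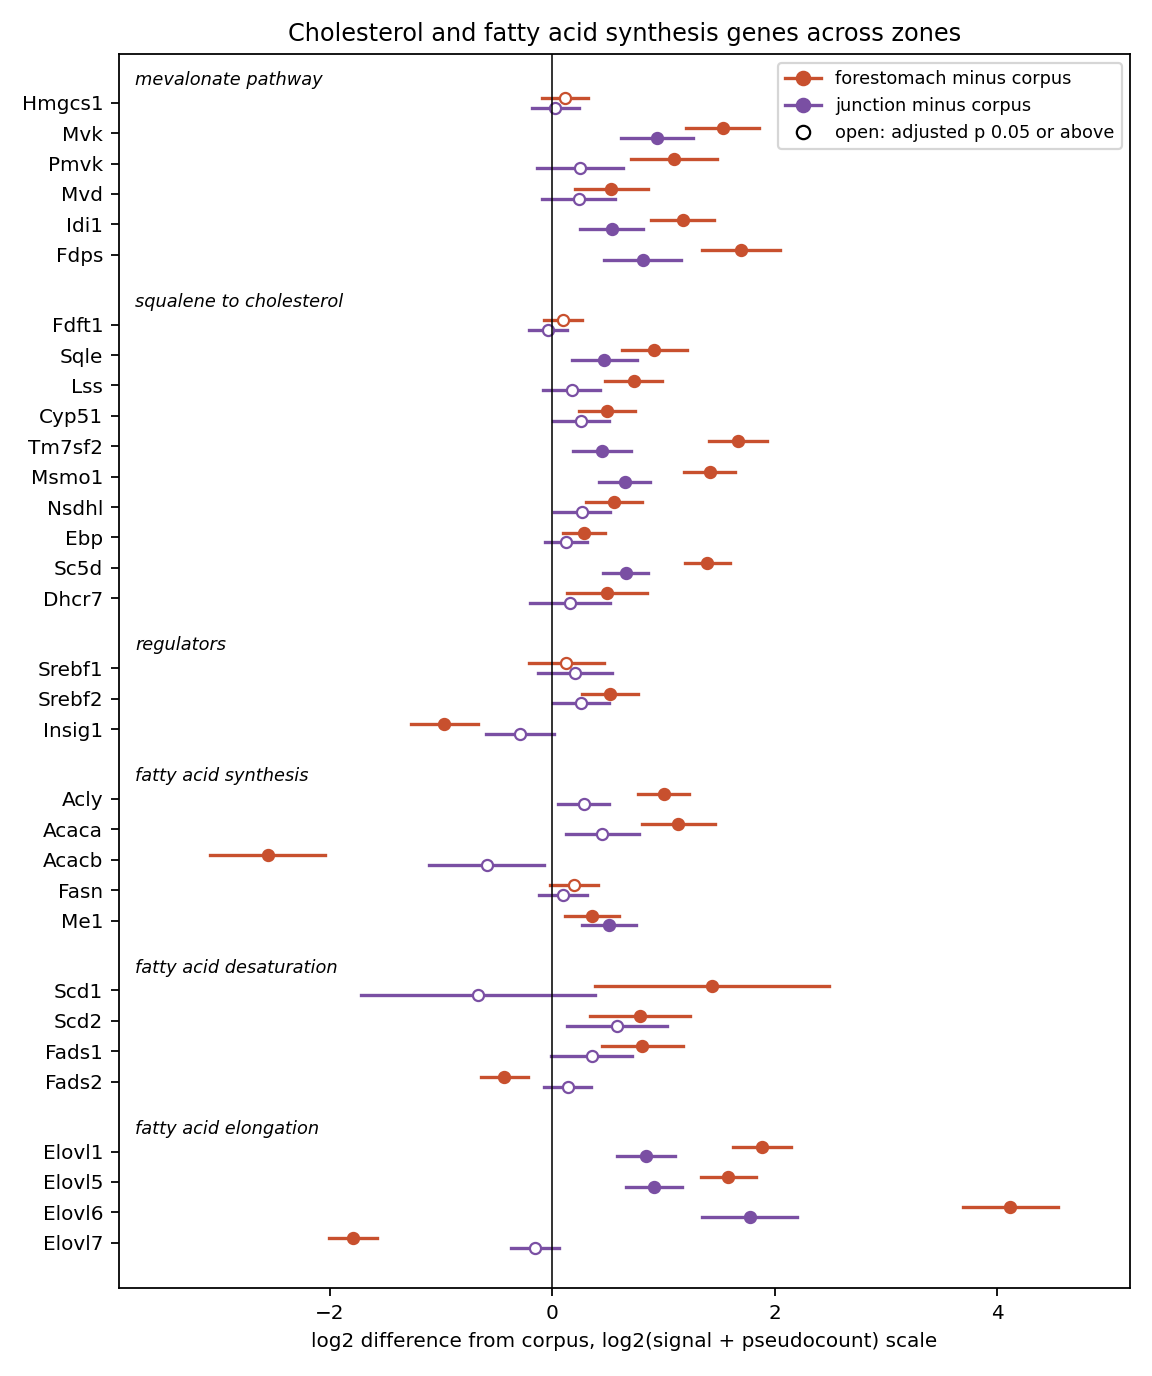
Log2 difference of the forestomach (red) and the junction (violet) from the corpus for each of the 32 genes, grouped by step of the pathway, on the log2(signal + 9.8) scale, with horizontal bars for the 95% confidence interval and open circles for genes not called. Elovl6 lies farthest to the right at 4.12 and Acacb farthest to the left at -2.56, and all 16 cholesterol enzymes have forestomach values to the right of 0.

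RefSeq's promoter table (GRCm38.p6) held 34 windows for 27 of the 33 genes, from 250 bases before the start of the transcript onward, and none for Fdps, Fdft1, Sqle, Scd1, Scd2 and Fads1. In all, 4 short patterns were searched on both strands before the start: TCACNCCAC, a form of the sterol regulatory element bound by SREBP; the E-box CACGTG, which SREBP-1 can also bind; CCAAT, bound by NF-Y; and GGGCGG, bound by Sp1. CCAAT stood in 22 of the 34 windows, or 64.7%, and in 33.8% of all 32851 windows of the table. GGGCGG stood in 24, or 70.6%, against 32.7% of all windows. CACGTG stood in 4 windows (Insig1, Dhcr7, Sc5d and Elovl5), or 11.8%, against 6.02%, and TCACNCCAC only in that of Hmgcs1, or 2.94%, against 1.05%. A match is a run of letters and not a measured binding site.

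The 180 bases before the start of 7 genes are shown 5′ to 3′ on the gene's own strand, with matches on either strand in capitals. Hmgcs1 carries the sterol regulatory element pattern, Msmo1 and Sc5d are late sterol enzymes that were higher in the forestomach, Insig1 was lower there, and Elovl5, Elovl6 and Elovl7 are elongases that differed in direction.
Hmgcs1, chr13:119690171-119690350, plus strand: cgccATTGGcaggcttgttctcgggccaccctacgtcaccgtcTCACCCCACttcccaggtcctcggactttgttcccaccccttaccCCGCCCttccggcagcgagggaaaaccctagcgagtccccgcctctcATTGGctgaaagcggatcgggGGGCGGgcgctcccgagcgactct
Msmo1, chr8:64733579-64733758, minus strand: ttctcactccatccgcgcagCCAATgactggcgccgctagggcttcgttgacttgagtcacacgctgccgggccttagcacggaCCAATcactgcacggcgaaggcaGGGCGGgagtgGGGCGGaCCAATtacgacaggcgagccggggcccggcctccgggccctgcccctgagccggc
Sc5d, chr9:42264301-42264480, minus strand: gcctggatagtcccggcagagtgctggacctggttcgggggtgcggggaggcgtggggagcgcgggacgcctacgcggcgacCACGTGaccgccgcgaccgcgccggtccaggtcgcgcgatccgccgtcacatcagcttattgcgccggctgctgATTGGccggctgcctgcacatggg
Insig1, chr5:28071232-28071411, plus strand: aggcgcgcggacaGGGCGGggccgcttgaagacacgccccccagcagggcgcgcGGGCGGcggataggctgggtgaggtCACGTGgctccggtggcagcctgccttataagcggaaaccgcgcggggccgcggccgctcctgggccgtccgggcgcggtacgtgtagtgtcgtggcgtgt
Elovl5, chr9:77917185-77917364, plus strand: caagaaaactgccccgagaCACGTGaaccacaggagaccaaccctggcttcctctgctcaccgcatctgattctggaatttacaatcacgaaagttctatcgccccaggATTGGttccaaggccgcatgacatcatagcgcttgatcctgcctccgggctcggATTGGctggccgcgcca
Elovl6, chr3:129532206-129532385, plus strand: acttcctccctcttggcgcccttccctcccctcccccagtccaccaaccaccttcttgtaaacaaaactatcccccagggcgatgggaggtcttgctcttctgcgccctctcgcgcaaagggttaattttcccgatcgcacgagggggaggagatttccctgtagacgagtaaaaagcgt
Elovl7, chr13:108214224-108214403, plus strand: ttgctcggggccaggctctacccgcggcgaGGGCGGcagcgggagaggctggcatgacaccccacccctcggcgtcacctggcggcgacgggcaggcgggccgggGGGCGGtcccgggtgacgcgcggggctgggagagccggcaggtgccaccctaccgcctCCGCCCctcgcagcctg
In these stretches the pattern of Hmgcs1 begins 137 bases before the start, and the E-boxes of Insig1, Sc5d and Elovl5 begin 101, 98 and 161 bases before it. The window of Elovl6 held none of the 4 patterns, and that of Elovl7 held GGGCGG alone.

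Of the 6 mevalonate pathway genes measured, 5 were higher in the forestomach than in the corpus (30.0% of all genes tested), and Hmgcs1 was not called. Fdps, which makes farnesyl diphosphate, had signals of 951, 861 and 906 on the corpus arrays, 1285, 1727 and 1839.8 in the junction and 2576, 3006 and 3338 in the forestomach. The zones did not overlap. Fdps was 3.24-fold higher in the forestomach than in the corpus (log2 difference 1.70 ± 0.15 SE, adjusted p = 1.92e-05), 1.76-fold higher in the junction than in the corpus (adjusted p = 0.00579) and 1.84-fold lower in the junction than in the forestomach (adjusted p = 0.00173).

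Mvk, the kinase that phosphorylates mevalonate, had 141, 149 and 147 in the corpus, 234, 362 and 284 in the junction and 431, 428 and 463 in the forestomach. On this probe set every junction array lay between the corpus and the forestomach arrays. Mvk was 2.90-fold higher in the forestomach (1.53 ± 0.14 SE, adjusted p = 2.45e-05) and 1.92-fold higher in the junction (0.94, adjusted p = 0.00208) than in the corpus. The other probe set of Mvk gave 0.74 (adjusted p = 0.00716) in the forestomach. In the junction it was not called against the corpus (0.54, adjusted p = 0.0633) or the forestomach (-0.195, adjusted p = 0.42). Its junction arrays (168.0, 206.7 and 225.8) overlapped those of the forestomach (295.8, 199.0 and 203.5). Idi1, the isomerase of isopentenyl diphosphate, had 990.0, 949 and 981 in the corpus, 1183, 1602 and 1485 in the junction and 2007, 2325 and 2299.5 in the forestomach, without overlap. Its difference from the corpus was 1.17 ± 0.12 (SE, adjusted p = 5.38e-05) in the forestomach and 0.53 (adjusted p = 0.0157) in the junction. The other probe set of Idi1 gave 0.83 (adjusted p = 6.2e-04) in the forestomach. In the junction it gave 0.07 and was not called (adjusted p = 0.737).

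Pmvk, the next kinase of the pathway, had 165, 191 and 163 in the corpus and 393, 389 and 359 in the forestomach, a 2.13-fold difference (adjusted p = 0.000529). Its junction arrays, at 160.1, 205 and 269.5, spanned the corpus arrays and stayed below the forestomach, by 0.84 on the log2 scale (adjusted p = 0.00367). Mvd, the decarboxylase, was 1.45-fold higher in the forestomach (254.3 ± 12.7 SD against 175 ± 35.9, adjusted p = 0.0114). On this probe set the junction was not called against either neighbour. The other probe set of Mvd gave 1.22 (adjusted p = 5.95e-04) for the forestomach against the corpus. In the junction it was called against the corpus (0.66, adjusted p = 0.0389) and the forestomach (-0.56, adjusted p = 0.0425). Hmgcs1, the HMG-CoA synthase of the cytosol, had 4460.0 ± 150.0 (SD) in the corpus, 4558 ± 405 in the junction and 4834 ± 95.3 in the forestomach, and its forestomach minus corpus difference of 0.12 (95% interval -0.09 to 0.33, adjusted p = 0.299) did not pass. These values are from its brightest probe set. The others gave 0.03 to 0.53, and only the dimmest, at signals of 63.8 to 155.2, was called (0.53, adjusted p = 0.048). The adjusted p of Mvd in the forestomach ranged from 0.000337 to 0.119 over its alternatives, and its call was lost without series 1 (0.119), without series 3 (0.0879) and without forestomach arrays 2 and 3 (0.0731). In the junction against the corpus, Fdps lost its call without series 2 (adjusted p = 0.107) or series 3 (0.0752), Mvk without series 3 (0.052), and Idi1 in 6 of 25 alternatives, among them without series 2 (0.152) or series 3 (0.152). In the junction against the forestomach, Pmvk lost its call without series 2 (adjusted p = 0.0533), Fdps and Idi1 without forestomach arrays 2 and 3 (0.0564 and 0.0892), and Mvk in 4 alternatives, among them without series 1 (0.0738) or series 3 (0.108).

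Most enzymes from squalene to cholesterol were higher in the forestomach. Of the 10, 9 were higher in the forestomach than in the corpus (30.0% of all genes tested). In the junction 4 were higher than in the corpus (13.2% of all genes) and 5 were lower than in the forestomach (23.1%). In the opposite directions the counts were 0, 0 and 0 (29.9%, 11.8% and 21.5% of all genes). They were also 0 at an unadjusted p under 0.05 by limma. Msmo1, the methylsterol monooxygenase that removes methyl groups from lanosterol's products, had 1090.3, 1057 and 1210.1 in the corpus, 1609, 1858.5 and 1827 in the junction and 3081, 3124.5 and 2793 in the forestomach. The zones were apart on every array, and Msmo1 was 2.67-fold higher in the forestomach (1.42 ± 0.10 SE, adjusted p = 4.32e-06) and 1.57-fold higher in the junction (0.65, adjusted p = 0.00215) than in the corpus.

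Tm7sf2, a sterol C14 reductase, had 204, 175.5 and 166 in the corpus, 228, 246 and 279 in the junction and 582, 576 and 639 in the forestomach. The junction arrays lay just above those of the corpus and well below those of the forestomach. Its differences were 1.67 ± 0.11 (SE, adjusted p = 3.35e-06) for the forestomach and 0.45 (adjusted p = 0.022) for the junction against the corpus. Sc5d, the sterol C5 desaturase, had 829, 877 and 868 in the corpus, 1240.5, 1467 and 1385 in the junction and 2259.7, 2264 and 2289 in the forestomach on its brightest probe set. By that probe set it was 2.63-fold higher in the forestomach (adjusted p = 2.23e-06) and 1.58-fold higher in the junction (adjusted p = 0.00105). Both other probe sets of Sc5d were not called, with forestomach differences of -0.40 (adjusted p = 0.162) and 0.16 (adjusted p = 0.183), so the difference of Sc5d rests on 1 of 3 probe sets.

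Sqle, the squalene epoxidase, was 1.89-fold higher in the forestomach than in the corpus (1538 ± 129 SD against 809.6 ± 59.4, adjusted p = 3.00e-04) and 1.38-fold higher in the junction (1130.0 ± 174, adjusted p = 0.0292). Lss, which closes squalene epoxide into lanosterol, was 1.66-fold higher in the forestomach, and Nsdhl, Cyp51, Dhcr7 and Ebp, which complete the late steps, were 1.47-, 1.41-, 1.40- and 1.22-fold higher. Fdft1, the squalene synthase, had 1181 ± 33.2 (SD) in the corpus, 1151 ± 6.63 in the junction and 1262 ± 12.1 in the forestomach, and was not called in any comparison. Its forestomach minus corpus difference was 0.10 with a 95% interval of -0.07 to 0.27.

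Some of these calls were lost with fewer pools. Dhcr7 and Ebp each lost theirs in 7 of 25 alternatives (adjusted p from 0.0104 to 0.214 and from 0.00548 to 0.237 over all alternatives). For Dhcr7 these were without corpus array 2 or 3, forestomach array 3 or series 1 or 3, and both pairs of arrays left out together, and for Ebp without corpus array 3, forestomach array 3, series 1, 2 or 3 (0.0671, 0.0864 and 0.155), and the same pairs. Cyp51 fell short without series 2 (adjusted p = 0.0602) and without forestomach arrays 2 and 3 (0.0692), Nsdhl without those forestomach arrays (0.0708), and Lss with the mean of its 3 probe sets (0.11). In the junction against the corpus, Sqle lost its call in 11 of 25 alternatives, Tm7sf2 in 7, and Msmo1 without series 2 (0.0604, range 6.1e-05 to 0.0604). In the junction against the forestomach, Sqle lost its call in 6 of 25 alternatives, and Lss and Sc5d with the mean of their probe sets (0.309 and 0.0678).

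The regulators differed in direction. Srebf2, which encodes SREBP-2, the main activator of cholesterol synthesis genes, had 350.7 ± 13.4 (SD) in the corpus, 422.3 ± 48.5 in the junction and 508.5 ± 42.3 in the forestomach, 1.43-fold higher in the forestomach than in the corpus (adjusted p = 0.00328). Its other probe set gave -0.20 (adjusted p = 0.427), and the mean of both gave 0.16 (adjusted p = 0.35). Srebf1, which encodes SREBP-1, had 647.2 ± 138 (SD), 736.2 ± 18.6 and 696.9 ± 41.5 and was not called in any comparison. Insig1, the sterol-regulated brake on SREBP processing, went the other way, at 464, 485 and 509 in the corpus, 429.6, 390.2 and 366 in the junction and 297, 211 and 228 in the forestomach. The 3 zones did not overlap. Insig1 was 1.96-fold lower in the forestomach than in the corpus (-0.97 ± 0.13 SE, adjusted p = 2.65e-04), and 1.60-fold higher in the junction than in the forestomach (adjusted p = 0.00341). The second of these calls was lost without series 2 (adjusted p = 0.0514) and without forestomach arrays 2 and 3 (0.0844).

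Among the 5 genes that make palmitate and its precursors, Acly and Acaca were higher in the forestomach and Acacb was lower. Acacb encodes acetyl-CoA carboxylase 2, the form at the mitochondrial outer membrane whose malonyl-CoA restrains fatty acid oxidation. Its signals were 473, 478 and 381.5 in the corpus, 355, 284 and 242 in the junction and 71.2, 45.2 and 90.7 in the forestomach, with no overlap between zones. It was 5.90-fold lower in the forestomach than in the corpus (-2.56 ± 0.23 SE, adjusted p = 1.77e-05) and 3.92-fold higher in the junction than in the forestomach (adjusted p = 1.91e-04). The junction minus corpus difference of -0.59 (95% interval -1.11 to -0.07) did not pass the threshold (adjusted p = 0.0925).

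Acaca encodes acetyl-CoA carboxylase 1, the cytosolic form that supplies fatty acid synthase. It was 2.20-fold higher in the forestomach (501.6 ± 1.7 SD) than in the corpus (226.3 ± 49.2, adjusted p = 1.73e-04), opposite to Acacb. Acly, the ATP citrate lyase, was 2.0-fold higher (2722 ± 98.2 against 1358 ± 124, adjusted p = 3.89e-05), and both were lower in the junction than in the forestomach, by 0.72 for Acly (adjusted p = 5.71e-04) and 0.68 for Acaca (adjusted p = 0.00503). Without series 3 the Acaca call in the junction was lost (adjusted p = 0.0712), as it was without forestomach arrays 2 and 3 (0.0741) and with the mean of its probe sets (0.0777). Fasn, the fatty acid synthase that both supply, had 1452 ± 122 (SD) in the corpus, 1552 ± 80.2 in the junction and 1664 ± 84.2 in the forestomach. Its forestomach minus corpus difference of 0.20 (95% interval -0.02 to 0.41) was not called (adjusted p = 0.103, range over its alternatives 0.0342 to 0.493).

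Me1, the cytosolic malic enzyme that yields NADPH, had its highest signals in the junction. It read 2033, 2104 and 2353 in the corpus, 2783, 3385 and 3092.5 in the junction and 2690.5, 2964 and 2647 in the forestomach. The junction overlapped the forestomach and not the corpus. It was 1.42-fold higher in the junction (adjusted p = 0.00958) and 1.28-fold higher in the forestomach (adjusted p = 0.0186) than in the corpus. The junction minus forestomach difference of 0.15 (95% interval -0.09 to 0.40) was not called. These values are from the brightest probe set of Me1. Its other probe set was not called in any comparison. Against the corpus it gave 0.18 (adjusted p = 0.229) in the junction and 0.16 (adjusted p = 0.185) in the forestomach. The junction call was lost in 4 of 25 alternatives, among them without series 1, 2 or 3 (adjusted p = 0.0533, 0.111 and 0.0717, range 7.18e-04 to 0.111), and the forestomach call in 7, among them without series 1 (0.0943) or 2 (0.125).

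Of the 4 elongases, 3 were higher in the forestomach than in the corpus and 1 was lower, beside 30.0% and 29.9% of all genes tested. Elovl6 had the largest such difference of the 32 genes. Elovl6, which lengthens palmitate to stearate, had signals of 244, 286 and 220.2 in the corpus, 639, 1077.5 and 970.5 in the junction and 4411, 4394 and 4647 in the forestomach. Every forestomach array was above every junction array and every junction array above every corpus array. Elovl6 was 17.4-fold higher in the forestomach than in the corpus (4.12 ± 0.19 SE, adjusted p = 3.48e-07), 3.42-fold higher in the junction than in the corpus (1.78, adjusted p = 2.55e-04) and 5.08-fold lower in the junction than in the forestomach (adjusted p = 2.42e-05). Its other 2 probe sets gave forestomach differences of 3.78 and 2.86, both called.

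Elovl1, which makes saturated very long-chain fatty acids for sphingolipids, had 2209, 2150.1 and 2175 in the corpus, 3281, 4317 and 4236 in the junction and 7920.0, 8350.4 and 8021 in the forestomach. It was 3.70-fold higher in the forestomach (1.89 ± 0.12 SE, adjusted p = 1.71e-06) and 1.79-fold higher in the junction (adjusted p = 0.00111) than in the corpus. Its 3 other probe sets gave forestomach differences of 1.65 to 2.14, and the probe set used is of a kind (x_at) that can also bind related transcripts. Elovl5, which lengthens polyunsaturated fatty acids, had 392, 427 and 400.4 in the corpus, 683.5, 844 and 805 in the junction and 1125.5, 1318 and 1270.2 in the forestomach, without overlap. It was 2.99-fold higher in the forestomach (adjusted p = 3.74e-06) and 1.88-fold higher in the junction (adjusted p = 5.35e-04) than in the corpus. Of the 11 genes called higher in the junction than in the corpus, Elovl1, Elovl5 and Elovl6 were the 3 that kept the call in all 25 alternatives.

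Elovl7, also an elongase of saturated very long-chain fatty acids, ran in the opposite direction. Its signals were 1185, 1282 and 1214 in the corpus, 1127, 1118 and 1059 in the junction and 309.7, 370.0 and 361 in the forestomach. The junction lay just below the corpus and far above the forestomach. Elovl7 was 3.47-fold lower in the forestomach than in the corpus (-1.80 ± 0.09 SE, adjusted p = 7.75e-07) and 3.12-fold higher in the junction than in the forestomach (adjusted p = 4.24e-06), while junction minus corpus was -0.15 (95% interval -0.37 to 0.06, adjusted p = 0.268). All 6 of its probe sets were called lower in the forestomach, by differences of -1.32 to -2.61.

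**Figure D2:**
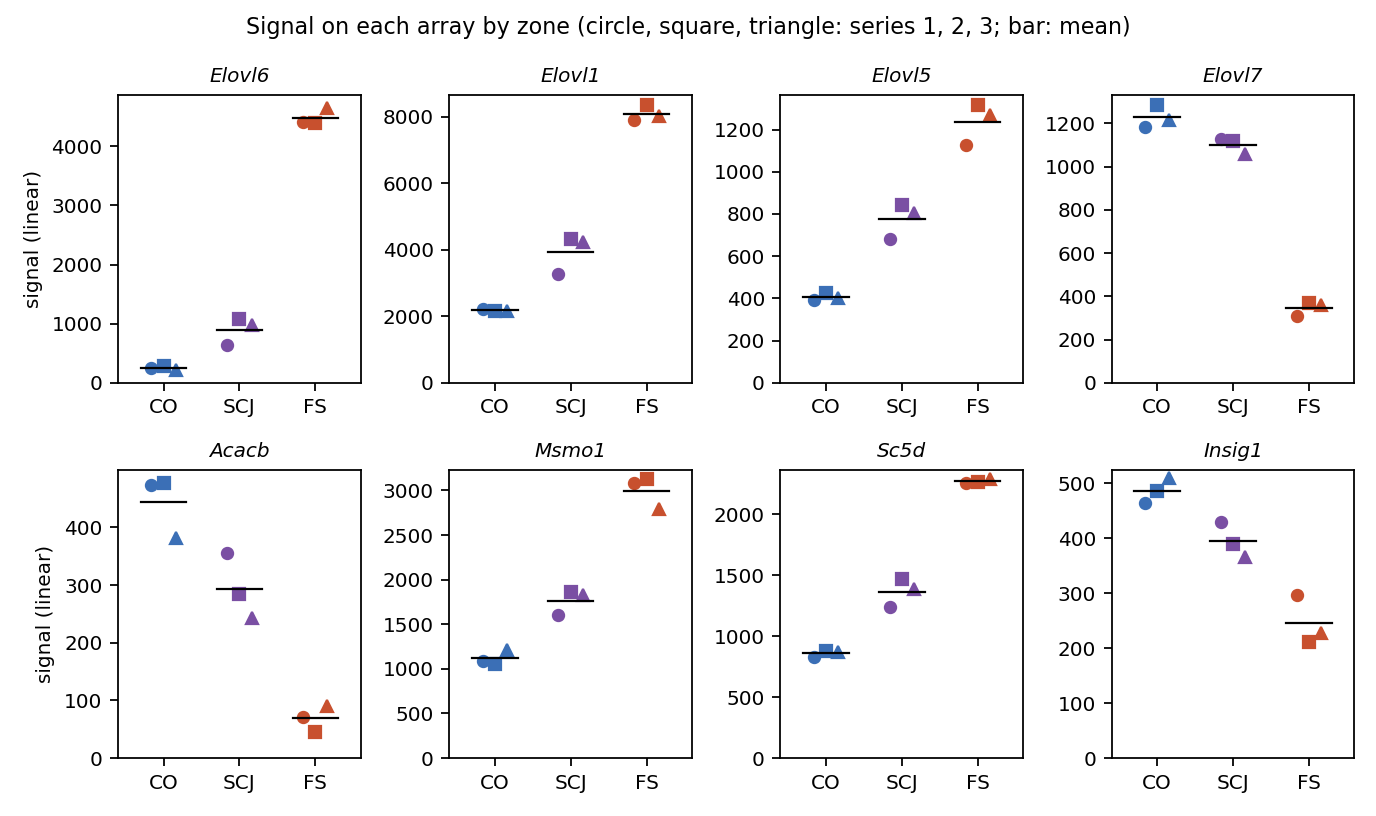
Signal on a linear scale on each array in the corpus (CO), the junction (SCJ) and the forestomach (FS) for 8 genes, with 1 point per array (circle, square and triangle for series 1, 2 and 3) and a bar for the mean of each zone. Elovl6, Elovl1, Elovl5, Msmo1 and Sc5d climb from corpus through junction to forestomach, Acacb and Insig1 descend, and the junction of Elovl7 (1059 to 1127) lies near the corpus (1185 to 1282).

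The desaturases differed among themselves. Fads1, which makes arachidonate from its precursor, was 1.75-fold higher in the forestomach (411.6 ± 13.4 SD) than in the corpus (234.3 ± 52.5, adjusted p = 0.00221), and was not called with the mean of its probe sets (0.42, adjusted p = 0.0716). Fads2, which acts before it, was lower in the forestomach, with 135, 119 and 117 in the corpus, 138, 144 and 129 in the junction and 94.2, 87.7 and 85.1 in the forestomach. Junction and corpus overlapped, and both lay above the forestomach. Fads2 was 1.35-fold lower in the forestomach than in the corpus (adjusted p = 0.00343) and 1.48-fold higher in the junction than in the forestomach (adjusted p = 0.00121). With the mean of its 3 probe sets the forestomach call was lost (-0.34, adjusted p = 0.163), as it was without forestomach arrays 2 and 3 (-0.36, adjusted p = 0.0818), and the junction call against the forestomach was lost with that mean too (0.45, adjusted p = 0.0941).

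Scd2, a stearoyl-CoA desaturase, was 1.73-fold higher in the forestomach (2910.0 ± 93.3 SD) than in the corpus (1731 ± 522, adjusted p = 0.00811). Another probe set gave -0.52 (adjusted p = 0.155), and the call was lost with the mean of the 3 (adjusted p = 0.239), without series 1 (0.0748) or 3 (0.0548) and without forestomach arrays 2 and 3 (0.0881). With the series as a block, Scd2 was called higher in the junction than in the corpus (0.58, adjusted p = 0.0397), which it was not without the block (adjusted p = 0.064). The probe set with the forestomach difference of -0.52 was called higher in the junction than in the forestomach (1.13, adjusted p = 0.013). In that comparison the brightest probe set was not called (-0.21, adjusted p = 0.429).

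Scd1, the stearoyl-CoA desaturase of fat and skin, had the largest standard error of the 32 genes. It read 281, 958 and 417 in the corpus, 318, 281 and 304 in the junction and 1199.9, 839 and 2314 in the forestomach. Corpus and forestomach arrays overlapped, and the junction lay below every forestomach array. Scd1 was 2.71-fold higher in the forestomach than in the corpus (1.44 ± 0.46 SE, adjusted p = 0.0246) and 4.30-fold lower in the junction than in the forestomach (-2.10, adjusted p = 0.00594). The forestomach call was lost in 8 of 25 alternatives (adjusted p from 0.0021 to 0.216), among them without corpus array 1 (1.06) or 3 (1.33), without forestomach array 3 (1.04), and without series 1 (1.13) or 3 (0.93). Without series 2 the difference was 2.25 and called. The junction call was lost without series 3 (-1.72, adjusted p = 0.0675).

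Some fat cell genes were highest in the same pools as Scd1. Adipoq, the adipocyte hormone adiponectin, read 18.7, 211 and 97.7 in the corpus, 15.4, 9.2 and 34.5 in the junction and 73.6, 13.7 and 493 in the forestomach. Corpus array 2 and forestomach array 3 were the highest of their zones for Scd1, Adipoq, Retn and Thrsp, a lipogenic gene of fat and liver. Of the other adipocyte genes measured, Cidec, Plin4 and Trarg1 were also highest on both arrays (Cidec from forestomach signals below the filter), and Fabp4, Cidea, Slc36a2 and Lipe were not. The summed signal of the 9 of 14 adipocyte genes measured was 2834 to 3440.2 in the corpus, 2381 to 2474 in the junction and 3884 to 6686 in the forestomach. Of those 9, 4 were called higher and 1 lower in the forestomach than in the corpus, beside 30.0% and 29.9% of all genes. Adipoq was not called (0.18). Without those 2 arrays together, the Scd1 difference was 1.52 (limma adjusted p = 0.0021). The 2 arrays were picked after the data were seen and held the highest Scd1 signal of their zones. Leaving them out therefore narrows the spread within zones, and no conclusion is drawn from that adjusted p. The part of fat in the difference was not tested.

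**Figure D3:**
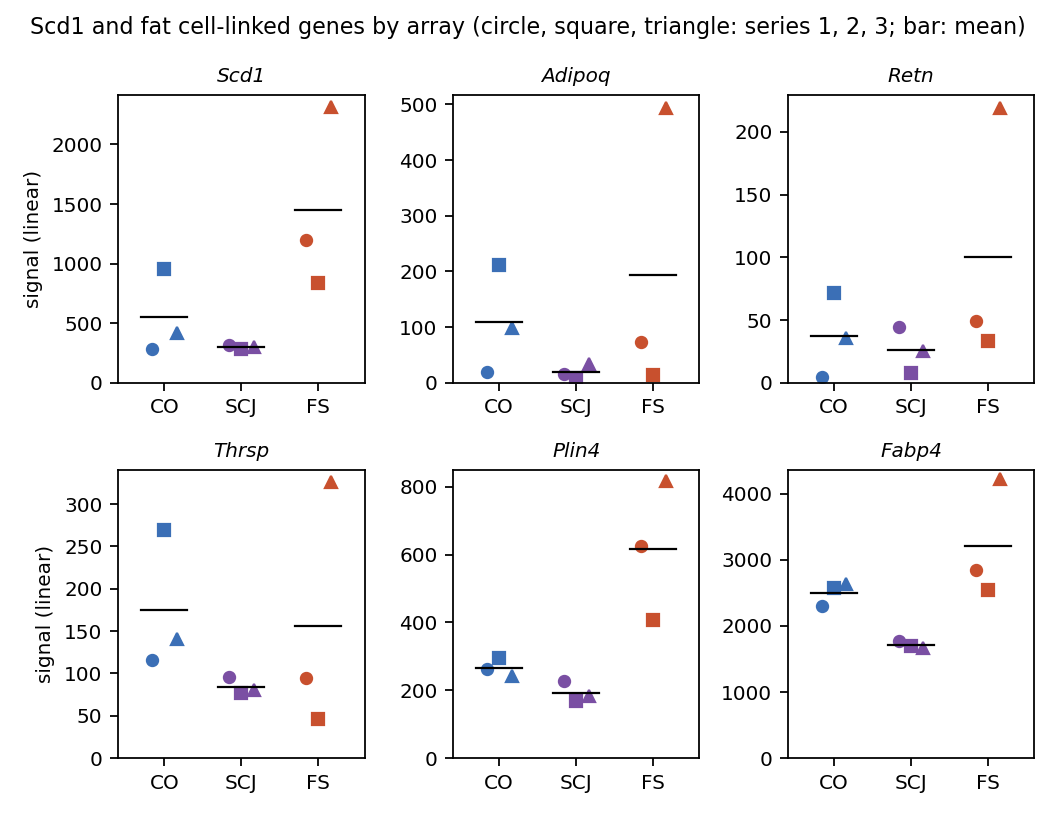
Signal on a linear scale on each array in the corpus (CO), the junction (SCJ) and the forestomach (FS) for Scd1 and 5 genes linked to fat cells, with 1 point per array (circle, square and triangle for series 1, 2 and 3) and a bar for the mean of each zone. The square of the corpus and the triangle of the forestomach are the highest of their zones for Scd1 (958 and 2314), Adipoq (211 and 493), Retn and Thrsp.

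The place of the junction between its neighbours was read within each series as the share of the distance from corpus to forestomach on the linear signal. Over the 28 genes called between forestomach and corpus, the median was 20.6%, 39.6% and 38.5% in series 1, 2 and 3, and over all 8168 genes called it was 28.8%, 40.4% and 42.0%. The 2 groups differ in their mix of directions. The 24 genes called higher stood at 23.4%, 41.5% and 38.5%, beside 23.6%, 34.5% and 34.8% for all 4085 genes called higher. The 4 called lower stood at 13.5%, 26.3% and 33.0%, beside 35.3%, 46.0% and 48.7% for all 4083 called lower. Elovl6 stood at 9.5%, 19.3% and 16.9% of the way, Tm7sf2 at 6.2%, 17.7% and 24.0%, and Elovl7 at 6.6%, 18.1% and 18.2%, all nearer to the corpus. Elovl5 stood at 39.7%, 46.8% and 46.6%. Series 1 gave the lowest of the 3 values for several sterol enzymes, such as Msmo1 at 26.0%, 38.8% and 39.0% and Fdps at 20.5%, 40.4% and 38.4%. These shares are ratios of single arrays and carry no test.

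**Figure D4:**
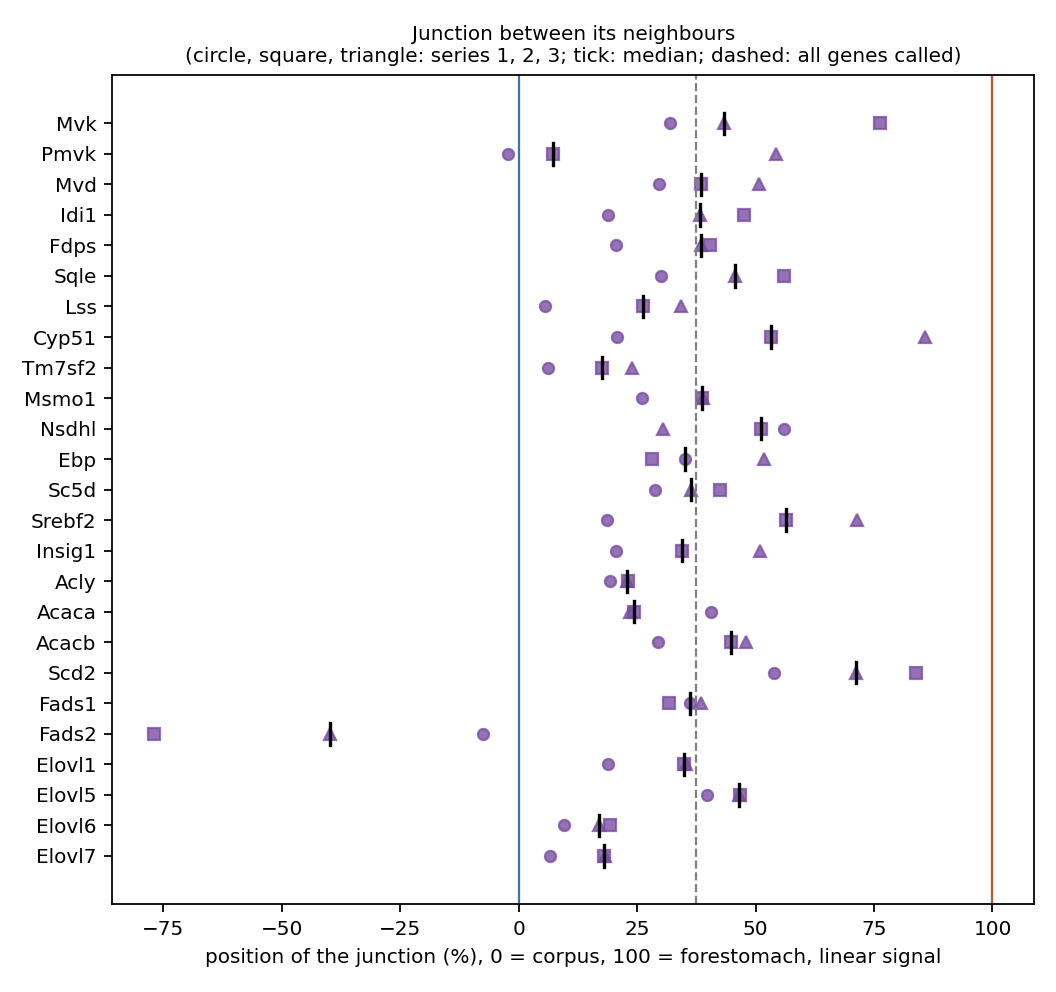
Position of the junction as a percentage of the way from corpus (0) to forestomach (100) on the linear signal, for 25 of the 28 genes called between those zones, with 1 point per series (circle, square and triangle for series 1, 2 and 3), a tick for the median and a dashed line for the median of all genes called (37.5%). Me1, Scd1 and Dhcr7 are not drawn because their values run beyond the axis. Elovl6, Elovl7 and Tm7sf2 lie at 24.0% or less in every series, and Fads2 lies below 0.

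Against the mean of the log2 values of both neighbours, 4 of the 32 genes were higher in the junction (Elovl7, Acacb, Fads2 and Me1), or 12.5%, beside 11.2% of all genes tested. The 2 that were lower, Tm7sf2 and Scd1, make 6.25%, beside 7.98%, and 19.2% of all genes were called either way. These shares are near those of all genes. Elovl7 differed most firmly, by 0.74 ± 0.08 (SE, adjusted p = 5.08e-04), and alone kept its call in all 25 alternatives. Acacb differed by 0.69 (adjusted p = 0.0408, range 0.014 to 0.331), Fads2 by 0.35 (0.0161, range 0.00833 to 0.297), Me1 by 0.33 (0.0378, range 0.00667 to 0.2), Tm7sf2 by -0.39 (0.0256, range 0.012 to 0.183) and Scd1 by -1.39 (0.0428, range 0.0191 to 0.193), and each lost its call whichever of the 3 series was left out. On the midpoint of the linear signals within a series, Elovl6 was called lower in the junction, at -1.43 (adjusted p = 0.0206), and Acacb was not called (0.17, adjusted p = 0.331). Called above both neighbours or below both were 0 of the 32 (0 also at an unadjusted p under 0.05 by limma), beside 2.76% of all genes. With the series as a block, Acacb, Tm7sf2 and Scd1 were not called (adjusted p = 0.0633, 0.0503 and 0.0729).

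Other genes of both pathways came from lists of 117 genes, of which 100 were measured and the rest were not analysed here. Among 5 other cholesterol synthesis enzymes, Hsd17b7 (2.08, adjusted p = 2.48e-06) and Lbr (1.15), both late sterol reductases, were higher in the forestomach than in the corpus, and Acat1, the mitochondrial thiolase, was lower (-1.53). In the junction Hsd17b7, Lbr and Acat1 differed from the corpus by 0.91, 0.45 and -0.70 and from the forestomach by -1.17, -0.69 and 0.83, all called, and 1 more gene of the list, Ggps1, was called lower than in the forestomach (-0.42). Of 13 genes of sterol sensing, uptake and transport, 5 were higher and 4 lower in the forestomach than in the corpus. These make 38.5% and 30.8%, beside 30.0% and 29.9% of all genes tested. Npc1l1, a sterol transporter, was lower (-1.24), and Lrp8, a lipoprotein receptor, and Mylip, which degrades such receptors, were higher (1.14 and 1.07). Lrp8 lay below the filter on all 3 corpus arrays (5.7, 6.1 and 20.8), so the size of its differences from the corpus rests on background there. In the junction Lrp8 and Mylip were higher than in the corpus (1.55 and 0.98), Npc1l1 and Scarb1 were higher than in the forestomach (0.97 and 0.44), and Npc1 was lower (-0.41). Scap, which escorts SREBP, differed by -0.08 (95% interval -0.31 to 0.16) and Insig2 by -0.11 (-0.35 to 0.12) between forestomach and corpus, neither of them called in any comparison.

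Genes of sterol efflux, esterification and oxysterols were called in 5 of 12 cases between forestomach and corpus, or 41.7%, beside 59.9% of all genes tested. Of the 12, 4 were higher in the forestomach, or 33.3%, beside 30.0% of all genes. Sult2b1, which makes cholesterol sulfate in squamous epithelium, was higher by 2.99 (adjusted p = 6.17e-07), Cyp27a1, a sterol hydroxylase, by 2.24, and Apoe by 1.16. In the junction they were higher than in the corpus by 1.91, 1.23 and 1.17. Against the forestomach, Sult2b1 and Cyp27a1 were lower in the junction (-1.07 and -1.01) and Ch25h was higher (1.25).

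Of 14 other genes of fatty acid synthesis and elongation, 5 were higher and 5 lower in the forestomach than in the corpus. These make 35.7% each, beside 30.0% and 29.9% of all genes tested. Elovl4, the elongase of ultra-long-chain fatty acids in the skin barrier, read 38.3, 24.4 and 34.4 in the corpus, 1132, 1756 and 1735 in the junction and 4464, 4991 and 4279.9 in the forestomach. Its corpus signal lay near the filter, at 29 to 36.5 depending on the array. The differences were 6.78 for the forestomach and 5.19 for the junction against the corpus (adjusted p = 7.4e-08 and 8.75e-07), and -1.59 for the junction against the forestomach. Hacd2, the dehydratase of the elongation cycle, was higher in the forestomach (1.70) and in the junction (0.96) than in the corpus and lower in the junction than in the forestomach (-0.74). Fads3 was lower in the forestomach than in the corpus (-2.29) and higher in the junction than in the forestomach (2.08), and Fads6 was lower in the junction than in the corpus (-1.0).

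Genes that supply citrate, acetyl-CoA and NADPH were mostly lower in the forestomach than in the corpus, 9 of 12 (29.9% of all genes tested), with 2 higher (30.0%). The mitochondrial malic enzymes Me3 (-3.17, adjusted p = 1.18e-05) and Me2 (-2.75, adjusted p = 1.34e-07) and the mitochondrial acetyl-CoA synthetase Acss1 (-1.80) were lower. The cytosolic Me1 was higher on its brightest probe set and not called on its other. Me3 lay below the filter on all 3 forestomach arrays (20.4, 8.0 and 26.0), so the size of its difference rests on background there. In the junction 8 of the 12 were lower and 2 higher than in the corpus, beside 11.8% and 13.2% of all genes. Me3 stood at -1.27, the mitochondrial isocitrate dehydrogenase Idh2 at -0.84 and the cytosolic Idh1 at 0.72. Me2, Me3 and Acss1 were higher in the junction than in the forestomach (2.33, 1.90 and 1.31). There 8 were higher and 0 lower in all (1 lower at an unadjusted p under 0.05 by limma), beside 21.5% and 23.1% of all genes. Fatty acid oxidation genes were lower in the forestomach than in the corpus in 10 of 13 cases, beside 29.9% of all genes. Higher were 0 (also 0 at an unadjusted p under 0.05 by limma), beside 30.0%. The lower ones were led by Eci1 (-1.82), Acads (-1.55) and Acadl (-1.44). The junction had 5 of 13 lower than the corpus (11.8% of all genes), with Acadm at -0.74, Eci1 at -0.58 and Cpt1a at -0.56. Higher than in the forestomach were 4 of 13 (21.5% of all genes), with Eci1 at 1.25, Acads at 1.20 and Acadl at 1.02.

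Of 16 regulators of fatty acid synthesis, 3 were higher and 5 lower in the forestomach than in the corpus. These make 18.8% and 31.2%, beside 30.0% and 29.9% of all genes tested. Ppara, a receptor for fatty acids, was higher (1.74, adjusted p = 1.53e-05), and Pparg, the receptor that drives fat cell formation, was lower (-1.42), as was Prkab1, a subunit of AMP-activated kinase (-1.15). In the junction Ppara was higher than in the corpus (0.62) and lower than in the forestomach (-1.12), Pparg was higher than in the forestomach (1.09), and Prkab2 was lower than in the corpus (-0.67). Of 15 genes of fatty acid activation and glycerolipid synthesis, 5 were higher and 8 lower in the forestomach than in the corpus. These make 33.3% and 53.3%, beside 30.0% and 29.9% of all genes tested. Mogat1, a monoacylglycerol acyltransferase, differed most (-5.81, adjusted p = 1.02e-07), at 3111 ± 145 (SD) in the corpus, 2445 ± 142 in the junction and 47.5 ± 16.3 in the forestomach. Agpat2 was lower (-2.15) and Dgat2, which makes triglyceride, higher (2.15) in the forestomach. In the junction Dgat2 and Agpat3 were higher than in the corpus (1.28 and 0.79) and Acsl6 was lower (-0.92), and Mogat1, Mogat2 and Agpat2 were higher than in the forestomach (5.46, 1.84 and 1.76), with Mogat2 below the filter in the forestomach.

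**Figure D5:**
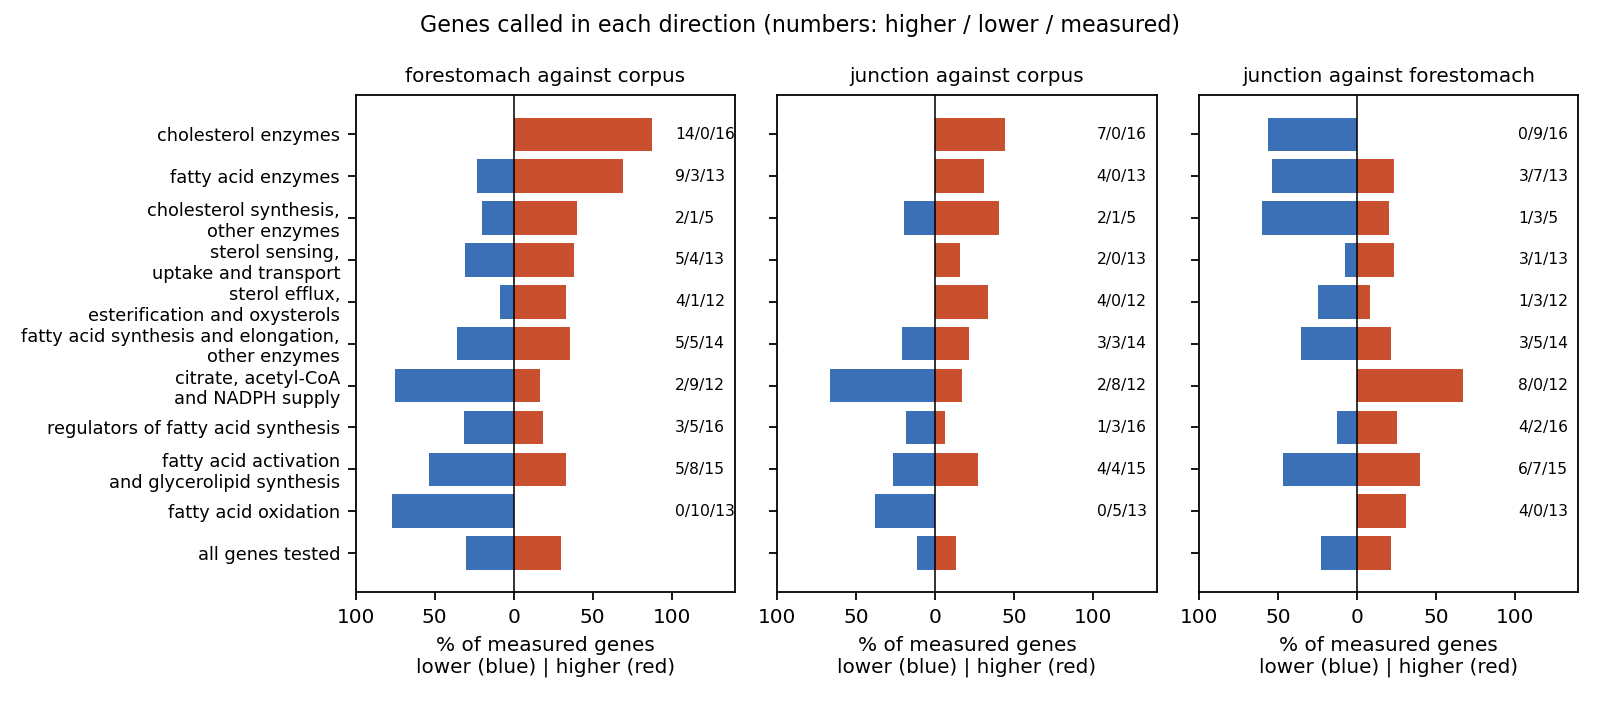
Percentage of the measured genes called higher (red, to the right) and lower (blue, to the left) in each of 3 comparisons, for the cholesterol and fatty acid enzymes among the 32 genes, for 8 lists of other pathway genes and for all genes tested, with the counts of higher, lower and measured genes at the right. Cholesterol enzymes were higher in the forestomach than in the corpus in 14 of 16 cases and lower in 0, and fatty acid oxidation genes were lower in 10 of 13. Of all genes tested, 30.0% were higher and 29.9% lower there.

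Other cell type markers set the zones apart as follows. All 13 genes of the suprabasal and cornified squamous layers (Lor, Ivl, Krt10 and others) were higher in the forestomach and in the junction than in the corpus. Of all genes tested, 30.0% and 13.2% were. The summed signals were 3084 to 5865 in the corpus, 76101 to 100656 in the junction and 116520 to 121131 in the forestomach. The 8 basal layer genes summed to 3271 to 3423, 15601 to 21204 and 15876 to 18723 in the same order, so that junction and forestomach overlapped. Sebaceous genes were measured for 3 of 8 (Elovl3, Far2 and Plin2), with sums of 237 to 300.2, 593 to 809.7 and 1647 to 1794. Plin2 made up most of these sums, with means of 211.4, 570.1 and 1337 in the same order, and Far2 had 22.1, 130.8 and 368.3. Elovl3 did not rise, at 28.1, 30.1 and 18.4, and was above the filter on only 3 of 9 arrays. Its forestomach minus corpus difference of -0.54 was not called. The smooth muscle sums of the junction lay within the range of the corpus. Its fibroblast sums, at 20840.2 to 22341, lay above those of the corpus, at 14732 to 17156. Leukocyte genes, 5 of 6 measured, summed to 1488 to 1665 in the corpus, 2674 to 2845 in the junction and 2605 to 3632 in the forestomach. Of the 5, 4 were called higher in the junction than in the corpus, beside 13.2% of all genes. Parietal cell sums were 46568 to 63974 in the corpus, 40161 to 48459 in the junction and 252.5 to 2376 in the forestomach, and the part of these cell types in the differences was not tested.

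Forestomach arrays 2 and 3, which held more transcripts of the glandular stomach than array 1, were also left out together. No called difference of the genes described changed sign without them. With 1 forestomach array left, that fit takes its spread from the other zones and assumes that the forestomach varies like them, which holds for every value given without those arrays. Over the alternatives, 16 of the 28 calls between forestomach and corpus, 3 of the 11 between junction and corpus and 8 of the 20 between junction and forestomach were kept in every one.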

How the data were processed

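Each of the 9 pools, 3 per zone, was measured on an Affymetrix mouse array with biotin-labelled cRNA made from its total RNA. The authors deposited 1 linear intensity for each probe set and array. Per the submitters' processing notes MAS5 made these signals, its version and settings not given in the sources used here. The trimmed mean of every array, with 2% taken off each end, is 200.0, and 3 values are 0. MAS5 subtracts mismatch signal, which leaves dim probe sets noisy, and bright ones can saturate, which compresses their folds. The number of arrays, 3 per zone, limits the precision.

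Tests ran on log2(signal + 9.8), where 9.8 is the median of the arrays' 20th percentiles, and nothing was normalized further. A fold on this scale understates the change of dim genes. Of 45101 probe sets, 34958 had a single gene symbol in the platform annotation, brought up to date through Entrez IDs with the gene table of GRCm38.p6. Probe sets above the array's 40th percentile (29 to 36.5) on 3 or more arrays were kept, and the brightest kept probe set stood for a gene, giving 13637 genes. Of the 76 probe sets of the genes described, 68 were kept, with more than 1 for 20 genes, and 0 genes had probe sets called in opposite directions in any comparison. Zones were compared with limma 3.58.1 (R 4.3.3) in a fit of 1 mean per zone over all 9 arrays, with 6 residual and 2.56 prior degrees of freedom, two-sided tests, Benjamini-Hochberg adjustment over all genes and a threshold of 0.05. The fit was tested on simulated data.

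The genes, the pathway and marker lists and the motifs were chosen with earlier results of these data known. Every gene is named, and signals on every array are given for up to 8 called genes per comparison with the largest difference and no overlap between zones, for genes called against the midpoint, and for Insig1 and Elovl4, picked after their values were seen. Of each pathway list, up to 3 called genes with the largest difference per comparison are named, and Scap and Insig2. The series pairs the arrays because arrays of 1 number come from the same 3 mice, per the series design text. Same-series deviations correlated at -0.0287 to 0.123 over 9 pairs of arrays (mean 0.0329), above 0.1 in 1. Alternatives were other pseudocounts, filters, normalizations, probe set rules and variance models, the series as a block, and leaving out arrays or series. After the data were seen, 3 were added, namely leaving out corpus array 2 with forestomach array 3, leaving out forestomach arrays 2 and 3, and a linear midpoint.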

Additional observations from a re-analysis of the deposited data

How the results depend on the processing

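Each gene's difference was recomputed under 25 alternatives. No called difference changed sign, and midpoint values are given only for genes called there. Among uncalled differences the sign turned for Srebf1 in the forestomach against the corpus (-0.04 without corpus array 3, range over arrays and series left out -0.04 to 0.317), in the junction against the corpus for Fdft1 (0.067 with median centring, 0.021 with the mean of probe sets) and Hmgcs1 (-0.041 with quantile normalization, -0.029 without junction array 3, -0.049 without series 3, range -0.049 to 0.099), and in the junction against the forestomach for Scd2 (0.234 with the mean of probe sets); the causes were not tested.

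With every probe set tested rather than 1 per gene, more features were called, 13690 between forestomach and corpus and 9739 between junction and forestomach. Without forestomach arrays 2 and 3, with fewer samples, 3805 genes were called between junction and forestomach, and 10 of the genes described were lower there. In the junction against the corpus, 1 gene (Acacb) was called lower with the larger pseudocount of 30.9, with a trended and robust variance, with the 6 arrays compared alone, and without forestomach arrays 2 and 3. On the linear midpoint 1391 genes were called in all. Against the midpoint, 2 of the genes described were higher with no filter, with the mean of probe sets and without corpus array 2 and forestomach array 3, and 1 without forestomach arrays 2 and 3 and on the linear midpoint, where 3 were lower. Lower there were 1 with a pseudocount of 1, with no filter, with median centring, with the mean of probe sets and without corpus array 2 and forestomach array 3, and 0 with the series block and without forestomach arrays 2 and 3. The causes were not tested.

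Leaving out single arrays or series gave 6471 to 8138 genes called between forestomach and corpus (18 to 24 of the genes described higher, 4 lower), 1221 to 3319 between junction and corpus (5 to 12 higher, 0 to 1 lower), 3946 to 5979 between junction and forestomach (3 to 4 higher, 11 to 16 lower) and 1022 to 2470 against the midpoint (1 to 4 higher, 0 to 2 lower). With the series as a replicate block, the count of genes called was 8145 between forestomach and corpus, 3230 between junction and corpus, 6046 between junction and forestomach and 2510 against the midpoint. Beyond the calls of Scd2, Acacb, Tm7sf2 and Scd1 given with those genes, the block changed no call of the genes described. Genes of the pathway and marker lists were not recomputed under the alternatives. Signals near the filter, such as those of Elovl4 in the corpus, are limited by background.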

Other observations

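Among the 100 other pathway genes, 6 were called on the same side of both neighbours in the junction (limma), 2 of them above and 4 below, beside 2.76% of all genes tested. They were named after their values were seen. Ch25h, which makes the oxysterol 25-hydroxycholesterol, read 191, 199 and 225 in the junction, above the corpus (88.4, 124 and 123) and the forestomach (105, 96.4 and 50.5), with differences of 0.83 (adjusted p = 0.0357) and 1.25 (adjusted p = 0.00309). Hacd4, a dehydratase of fatty acid elongation, was higher than in the corpus by 0.58 and than in the forestomach by 0.51. Its relative Hacd1 was lower, by -0.39 and -0.46.

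Prkaa2, a catalytic subunit of AMP-activated kinase, read 232, 240.5 and 257 in the junction, below the corpus (381, 459 and 457) and the forestomach (468, 425 and 515), with differences of -0.80 (adjusted p = 0.00128) and -0.92 (adjusted p = 2.58e-04). Gpam, which starts glycerolipid synthesis, was lower in the junction by -0.49 and -0.44, and Acsl6, an acyl-CoA synthetase, by -0.92 and -0.55 at signals of 23.9 to 35.2, near the filter.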
